A study of Mus musculus with 6 samples.

Results

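Primitive erythroid cells, the first red blood cells of the mouse embryo, were described from single-cell RNA counts of the microdissected cardiogenic region at E10.5, mid-gestation. Members were chosen by their globin share. A barcode, the tag that marks the RNA of 1 droplet, was a member with at least 1000 detected genes, at most 10% of its counts from mitochondrial genes, and at least 20% of its counts from 7 globin genes (Hba-x, Hbb-y, Hbb-bh1, Hba-a1, Hba-a2, Hbb-bt and Hbb-bs). Of 53362 deposited barcodes, 43370 passed the first pair of limits and are called retained, and 1481 of these were members. That is 3.41% of the retained barcodes (95% exact binomial interval 3.25 to 3.59%, counting error only). The members held 7.39% of the retained counts and 98.7% of the retained globin counts. Counts are unique molecular identifiers (UMIs), each standing for 1 captured RNA molecule, and were read from the 3′ end, so they are not scaled by gene length. Levels are given as CPM, the UMIs of a gene per 1000000 non-globin UMIs, with the globins taken out of the total, from the summed counts of the members of a library or of all members.

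The labels describe 6 samples of wild-type C57BL/6 embryos, fathered by normal glycemic males. In 3 samples the mother had been pretreated with vehicle and was normal glycemic, and in 3 she had been pretreated with streptozotocin, a toxin of insulin-producing cells, and was hyperglycemic. All samples were deposited as 1 matrix whose barcodes end in a number from 1 to 6. These numbers separate 6 libraries, but no file used here pairs a library with a sample, so vehicle and streptozotocin were not compared and each library is given on its own, with no test. Library 1 held 273 members, library 2 176, library 3 447, library 4 129, library 5 231 and library 6 225. As shares of the retained barcodes these were 3.11%, 2.07%, 6.78%, 2.17%, 3.16% and 3.62%, with the highest share in library 3. The exact binomial interval of library 3 overlapped no other, and those of libraries 2 and 4 overlapped each other and lay below the rest. These intervals cover counting error only and not the spread between samples, so they do not rank the samples. Libraries 1 and 2 were deposited with exactly 10000 barcodes each, and whether this changed their shares was not tested. How much circulating blood entered each dissection was not measured.

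Primitive erythroid cells arise in the blood islands of the yolk sac and enter the circulation as a wave of nucleated cells that divide and mature in the bloodstream, so that any vascularised tissue of the embryo contains them. Their haemoglobin is built from embryonic globin chains. In the mouse the alpha-type chain zeta is encoded by Hba-x and the beta-type chains by Hbb-y and Hbb-bh1. Adult alpha chains come from Hba-a1 and Hba-a2, which the primitive lineage also uses, whereas the adult beta chains of Hbb-bt and Hbb-bs mark the definitive cells made later in the fetal liver.

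The promoters of 4 globin genes and of Alas2, the erythroid enzyme that starts heme synthesis, are shown because the results turn on these genes. Each line gives the 250 bases before the RefSeq transcription start in GRCm38.p6, 5′ to 3′ on the strand of the gene. Capitals mark every match on either strand to a GATA motif (AGATAA or TGATAA) or to the core of a CACCC box (CACCC), the letters bound by GATA factors and by Klf factors. Overlapping matches run together.
Hba-x (chr11:32276350-32276599, plus strand): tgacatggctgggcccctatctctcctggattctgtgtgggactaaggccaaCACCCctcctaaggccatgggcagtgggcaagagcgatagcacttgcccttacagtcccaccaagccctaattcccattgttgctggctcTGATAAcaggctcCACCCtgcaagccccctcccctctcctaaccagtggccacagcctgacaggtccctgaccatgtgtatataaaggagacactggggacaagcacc
Hba-a1 (chr11:32283422-32283671, plus strand): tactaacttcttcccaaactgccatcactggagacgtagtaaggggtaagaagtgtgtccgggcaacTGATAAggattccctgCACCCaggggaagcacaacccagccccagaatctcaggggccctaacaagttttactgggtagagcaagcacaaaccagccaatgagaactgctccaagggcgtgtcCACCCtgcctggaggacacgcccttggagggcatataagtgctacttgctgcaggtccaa
Hbb-y (chr7:103853208-103853457, minus strand): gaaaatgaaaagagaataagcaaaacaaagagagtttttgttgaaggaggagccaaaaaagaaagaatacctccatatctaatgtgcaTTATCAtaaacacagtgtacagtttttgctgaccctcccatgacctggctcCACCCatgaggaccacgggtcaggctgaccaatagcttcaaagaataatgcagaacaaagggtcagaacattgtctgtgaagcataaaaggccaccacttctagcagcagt
Hbb-bt (chr7:103813924-103814173, minus strand): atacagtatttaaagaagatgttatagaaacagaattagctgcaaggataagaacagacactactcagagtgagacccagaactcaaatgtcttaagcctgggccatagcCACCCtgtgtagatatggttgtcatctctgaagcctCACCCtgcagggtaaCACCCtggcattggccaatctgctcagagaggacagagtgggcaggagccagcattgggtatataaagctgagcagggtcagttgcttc
Alas2 (chrX:150547167-150547416, plus strand): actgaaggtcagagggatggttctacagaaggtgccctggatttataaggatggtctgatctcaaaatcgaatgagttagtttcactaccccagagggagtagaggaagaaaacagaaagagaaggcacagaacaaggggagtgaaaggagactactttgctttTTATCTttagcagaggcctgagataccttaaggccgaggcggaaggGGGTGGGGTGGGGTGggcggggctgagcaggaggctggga
A GATA match stands 108 bases before the start of Hba-x, 162 before that of Hbb-y, 183 before that of Hba-a1 and 86 before that of Alas2, and these letters are not in the window of Hbb-bt. The window of the other adult beta gene, Hbb-bs, holds them 210 bases before its start. All 5 windows shown hold CACCC, 3 times in Hbb-bt and in Alas2. For comparison, 16.99% of the 27025 RefSeq promoters hold the GATA letters within the same 250 bases and 51.3% hold CACCC. The RefSeq promoter sequences of Hba-a1 and Hba-a2 run past these windows. With the second shifted by 3 bases, they are the same over all 297 bases compared, which shows how alike these copies are. Among promoters matched by symbol, the GATA letters occur in 14.4% of 334 genes higher in the members by the rule given below, in 8.78% of 1788 lower genes and in 8.55% of 5706 genes compared. CACCC occurs in 65.3%, 62.2% and 55.7%. A match describes the letters and is not evidence of binding.

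Before the results, 3 features of the libraries need stating. First, the sequence of 428 members (28.9%) also occurred in another library, against 6.13% of the other retained barcodes. Most copies were small: 669 globin-rich barcodes under the gene minimum carried the sequence of a member elsewhere, and the member held 41.5 to 266 times as many UMIs (median 113). For 21 members there was a copy with at least 1000 genes or under 20% globin, which these ratios do not cover. No sequence was a member in more than 1 library, and 0 of the 1481 members had fewer UMIs than another copy of its sequence. Second, library 1 carried Xist, the RNA that coats the inactive X chromosome, and the other 5 libraries carried Y-linked transcripts, at 116 to 132 CPM in their members. In libraries 2 and 3, 7 members held at least 5 Xist UMIs and 5 of these held no Y-linked UMI, whereas 0 of the 14463 other retained barcodes of these libraries held that many Xist UMIs (3 counts would be 0.0207%). Finally, 137 members held at least 20 UMIs from marker lists of other cell types. The total counts of genes in each comparison below are also given without them.

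On the globin axis, which also chose the members, most members lay well apart from most other barcodes. Between 1% and 20% globin lay 47 retained barcodes, against 41842 under 1% and 1405 members between 30% and 60%. The median globin share of a member was 40.8%, the quartiles 37.6% and 43.7%, and the highest 65.7%. Library medians ran from 40.3% in library 2 to 41.5% in library 4, so the libraries overlapped almost entirely. A median member held 65192 UMIs, of which 38417 were not globin, and 5019 genes. The other retained barcodes held a median of 28212 UMIs and 5947 genes. By library the members' median was 64979, 71920.5, 72065, 56300, 56485 and 59006 UMIs. Each of libraries 1 to 3 thus lay above each of libraries 4 to 6. In the other retained barcodes libraries 4 to 6 had the higher medians.

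Around the threshold of 20% the barcodes graded into one another. The 29 members just inside it, at 20% to 25%, had a median of 7392 genes and Alas2 at 391 CPM. The 21 barcodes just outside it, at 15% to 20%, had 8006 genes and Alas2 at 239. Both groups carried markers of other cell types, at 3836 and 5977 CPM, against 217 at 40% to 45% globin. Whether such barcodes held 2 cells was not tested.

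**Figure D1:**
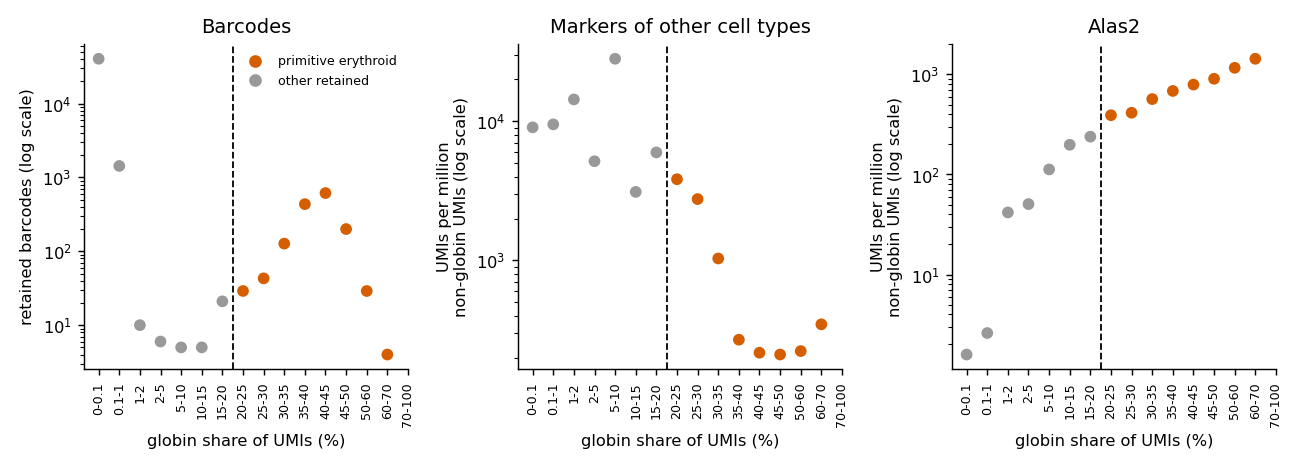
Each panel plots retained barcodes by the share of their UMIs that came from 7 globin genes, in unequal ranges from 0 to 100%: the number of barcodes, the summed level of markers of other cell types and the level of Alas2, all on log scales, with the 20% threshold dashed. Most barcodes lie under 1% or between 30% and 60%, and markers of other cell types fall from 3836 CPM at 20% to 25% globin to 217 at 40% to 45%.

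Intervals are 95% exact Poisson intervals and cover counting error only. The markers of the label were checked first. Klf1, the erythroid Krüppel-like factor that activates beta globin, stood at 282, 293, 315, 241, 237 and 256 CPM in libraries 1 to 6 and at 0.997 in the other retained barcodes. Gata1, Epor, Slc4a1 and Alas2 were likewise above the others in 6 of 6 libraries, and no marker fixed for the label and measured here went against it. Ahsp was not found under this symbol and was not analysed here.

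Embryonic globins made up 87.2% of the members' globin UMIs. Hbb-y supplied 42.9, 43.5, 43.6, 43.4, 43.5 and 43.3% in libraries 1 to 6. Hba-x supplied 34.2, 33.2, 33.2, 32.9, 32.6 and 31.8%, and Hbb-bh1 10.6, 10.9, 10.4, 11.4, 11.1 and 11.03%. The order of these 3 genes was the same in each library, and for none of them did the highest library exceed the lowest by more than 10%. Beta-type chains together gave 54.8% of globin UMIs, and single members spread around this with a standard deviation of 2.26 percentage points, where counting error alone gives 0.338.

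The balance of the embryonic beta genes differed little between libraries. Hbb-bh1 declines and Hbb-y rises as primitive cells mature, and Hbb-bh1 gave 19.8, 19.95, 19.3, 20.9, 20.4 and 20.3% of their sum in libraries 1 to 6. Over single members the share had a median of 19.8% with 5th and 95th percentiles of 16.4% and 23.3%. Its standard deviation, 2.25 percentage points, was larger than the 0.365 that counting error gives, and the members ran from 7.65% to 26.6%, with the lowest farther from the median than the highest.

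Adult alpha globin was well represented and differed between libraries. Hba-a1 and Hba-a2 together gave 25.6, 26.5, 26.5, 26.6, 27.3 and 29.7% of alpha globin UMIs in libraries 1 to 6. Library 1 was lowest and library 6 highest, and the other 4 lay within 1 percentage point of each other. The lower quartile of library 6 members (27.9%) lay above the upper quartile of library 1 members (27%). The split between Hba-a1 (8.38% of globin UMIs) and Hba-a2 (3.78%) is uncertain, since these copies are nearly identical. How reads that match both copies were counted was not examined, so the sum of the copies is uncertain too. The same holds for Hbb-bt and Hbb-bs below.

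Adult beta globin was a trace. Hbb-bt gave 0.453, 0.304, 0.607, 0.261, 0.280 and 0.289% of globin UMIs in libraries 1 to 6, with library 3 highest and library 1 next. Hbb-bs, its near-identical neighbour, gave 0.149, 0.197, 0.192, 0.171, 0.175 and 0.179%, and library 3 did not stand apart there. Only 17 members held more than 5% adult chains among their beta globin UMIs, 9 of them in library 3, the highest member stood at 15.8%, and 0 of 1481 exceeded 50%. Barcodes whose beta globin was adult did occur below the gene minimum. Of 98 globin-rich barcodes with fewer than 1000 genes and no copy among the members, 21 had at least 70% globin, and 99.9% of their beta globin was adult, against 0.837% in the other 77. Of these 21, library 3 held 16, library 2 held 4 and library 4 held 1. Their median was 180 genes and 2859 UMIs, and what they were was not tested.

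**Figure D2:**
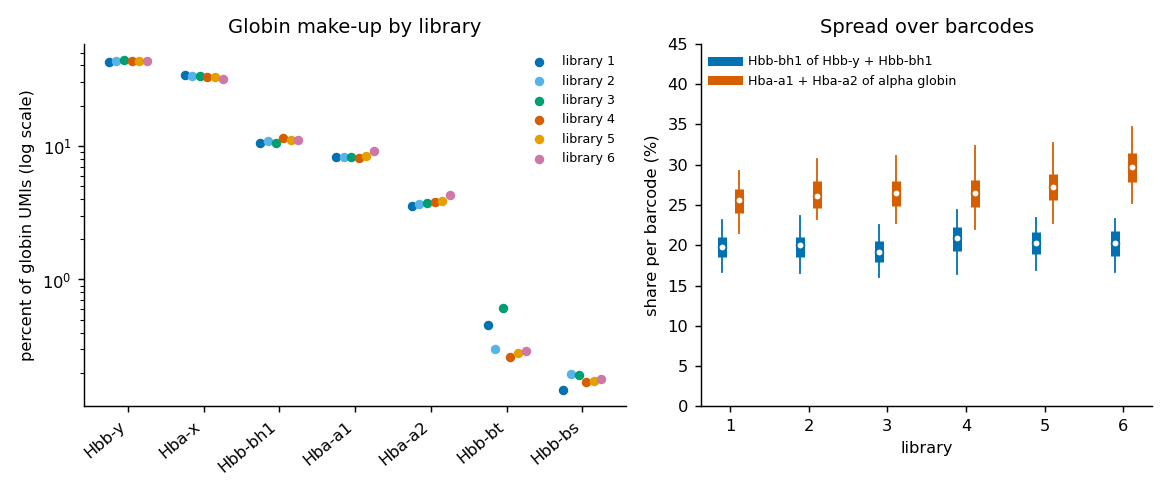
The left panel plots each globin gene's percent of the members' globin UMIs in 6 libraries on a log axis. The right panel plots shares within single members by library (point, median; thick bar, quartiles; thin line, 5th to 95th percentile), with the median adult alpha share highest in library 6 at 29.7% and the median Hbb-bh1 share between 19.2% and 20.9% in all 6 libraries.

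Of 7103 non-globin genes at 20 CPM or more in the members or the other retained barcodes, 416 were at least 2-fold higher in the members, pooled and in each of 6 libraries, which is 5.86% of those tested. A further 2273 were at least 2-fold lower (32%). A gene under 20 CPM in the members entered only through the other barcodes and could not be called higher. The median log2 fold over all genes tested was -0.57. Members were selected on globin, so these differences follow from the choice of members and are given as a description without a test. Without the 137 members that held other markers, 441 were higher and 2449 lower. Keeping globins in the total lowers every fold of a member and leaves 186 genes higher and 3992 lower.

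The heme pathway stood high throughout. All 8 of its measured genes that reached 20 CPM were called higher, with a median log2 fold of 4.09. Alas2, the erythroid form of the first enzyme, stood at 704, 749, 733, 775, 709 and 734 CPM in libraries 1 to 6 (pooled 729.5, interval 723 to 736) and at 1.93 in the other retained barcodes, a 379-fold difference. The 6 libraries lay close together, far above the other barcodes of any library. Alas1, the form used by other tissues, was at 2.86 CPM, below the 16.6 of the other barcodes. Cpox, the coproporphyrinogen oxidase, stood at 932, 1101, 1058, 971, 892 and 961 CPM, 43.8-fold higher. Alad, Uros, Urod, Ppox and Fech, the ferrochelatase that inserts the iron, were 12.7- to 22-fold higher.

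Iron supply and storage genes accompanied them, with 11 of 16 tested called higher and 1 lower. Fth1, the ferritin heavy chain, had the highest level of any non-globin gene, at 14329, 14605, 16255, 13757, 13695 and 13429.9 CPM in libraries 1 to 6 and 1093 in the other retained barcodes. Ftl1, the light chain, stood at 6019, 5731, 6962, 4988, 4872 and 4627 against 2149. Both chains were highest in library 3 and lowest in library 6, although the folds were at least 2.30 in each library. Slc25a37, the mitoferrin that carries iron into the mitochondrion, stood at 774, 869, 898, 919, 877 and 895 CPM, 82.8-fold higher. Tfrc, the transferrin receptor, stood at 215, 240.4, 214, 324, 318 and 330.1, with libraries 4 to 6 each above libraries 1 to 3. Glrx5, a glutaredoxin of iron-sulfur cluster assembly, and Abcb10, the partner of mitoferrin, were 9.20- and 21.6-fold higher. Steap3, the ferrireductase of the endosome, was 55.1-fold higher. Hmox1, the inducible heme oxygenase, was under the level needed for comparison, at 0.857 CPM (51 UMIs in all members) against 13.1. The iron exporter Slc40a1 stood at 5.50 CPM. Aco1, the cytosolic aconitase that doubles as an iron sensor, was the gene called lower, at 7.01 against 22.9.

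Membrane and skeleton genes had the highest median fold of the erythroid lists with more than 1 tested gene. Of 18 tested, 15 were called higher and 0 lower, with a median log2 fold of 7.50. Slc4a1, the band 3 anion exchanger, stood at 268, 313, 315, 298, 301 and 291 CPM in libraries 1 to 6 and at 0.333 in the other barcodes. Rhag and Rhd, of the Rh complex, were at 132 and 239 CPM against 0.139 and 0.916. Rhd ran from 168 to 305 CPM over the libraries, highest in library 3. The skeleton genes Sptb (a spectrin), Ank1 (ankyrin) and Epb42 (protein 4.2) were 27.9-, 125- and 881-fold higher. Cd47, the signal against phagocytosis, and Bsg, basigin, were near the level of other cells (29.96 against 34.5 and 527 against 463 CPM). Aqp1, the water channel of adult red cells, had 5 UMIs in all members, while Aqp3, an aquaglyceroporin, stood at 76.9 to 106 CPM over the libraries.

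**Figure D3:**
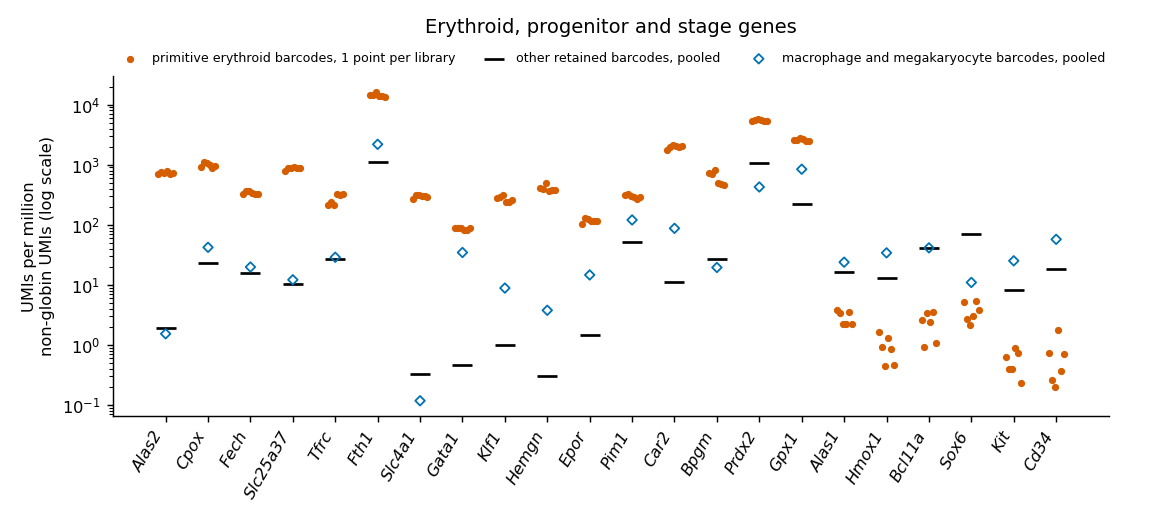
Levels of 22 genes in CPM (of non-globin UMIs) on a log axis: the primitive erythroid members as 1 point per library, with the pooled other retained barcodes (bars) and the pooled macrophage and megakaryocyte barcodes (diamonds). From Alas2 to Gpx1 the 6 library points lie above both, and from Alas1 to Cd34 they lie below both.

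Of 18 tested genes for erythroid transcription factors and cofactors, 12 were called higher and 1 lower. Gata1, the factor without which red cells do not mature, stood at 89.3, 88.7, 89.5, 81.7, 81.4 and 88.8 CPM in libraries 1 to 6, 188-fold above the others. Hemgn, hemogen, stood at 413, 389.6, 496, 364, 382 and 384, against 0.308 in the others. Libraries differed little for Gata1, and library 3 was highest for Hemgn and Klf1. Tal1, Lyl1 and Lmo2, of the complex that binds with Gata1, were 25.9-, 14.3- and 4.32-fold higher. Nfe2, Gfi1b and Ikzf1 were 57.99-, 108- and 104-fold higher. Klf2, which acts with Klf1 on embryonic beta genes in the yolk sac, was the gene called lower, at 0.659 to 9.79 CPM over the libraries against 37.9. Gata2, the factor of progenitors that Gata1 replaces, had 29 UMIs in all members (0.488 CPM).

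Of 10 progenitor genes, 0 reached 20 CPM in the members. Fli1 and Itga4 reached it in the other retained barcodes only and were called lower. Genes that enter this way cannot be called higher, so these calls describe levels and carry no further weight. Fli1, a factor of endothelium and megakaryocytes, stood at 5.35 CPM against 79.1, and the integrin gene Itga4 at 2.77 against 27.6. The other 8 were not tested and did not all lie on 1 side: Adgrg1, an adhesion receptor gene, stood at 7.30 against 2.03 and Runx1 at 14.6 against 7.35. Kit, the stem cell factor receptor, stood at 0.641, 0.392, 0.405, 0.883, 0.734 and 0.236 CPM in libraries 1 to 6 against 8.15 in the others. Cd34 stood at 0.521 against 18.1, and Ptprc, the leukocyte antigen CD45, had 0 UMIs in all members (3 UMIs would be 0.0504 CPM). Of 8 tested regulators tied to the definitive stage, 6 were called lower and 1 higher (median log2 fold -2.06). Over all genes tested, 32% were called lower and the median was -0.57. The list mixes repressors of embryonic globin with RNA-binding proteins of fetal tissues, so its count is not a measure of stage. Bcl11a and Sox6, which silence embryonic beta globin in definitive cells, stood at 2.57, 0.915, 3.39, 2.43, 3.55 and 1.06 and at 5.13, 2.74, 2.18, 3.09, 5.39 and 3.89 CPM in libraries 1 to 6. Other retained barcodes had 40.6 and 70.4. Myb, required for definitive but not primitive erythropoiesis, had 20 UMIs in all members. Zbtb7a, another repressor of embryonic globin, was the 1 called higher, at 38.9 to 56.2 CPM against 17.8. Igf2bp1, Igf2bp3 and Lin28b, RNA-binding proteins of fetal tissues, were 5.32-, 5.22- and 3.33-fold lower than in the other embryonic cells and still between 27.1 and 42.95 CPM.

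Erythropoietin signalling was represented by its receptor and kinase. Epor stood at 103, 129.7, 127, 115, 115 and 117 CPM in libraries 1 to 6 and at 1.44 in the others, with no overlap. Jak2, the kinase bound to it, and Stat5b, its transcription factor, were 2.78- and 2.76-fold higher. Pim1, a survival kinase and target of this pathway, stood at 319, 331, 307, 285, 269.7 and 287, 5.91-fold higher. Of the feedback inhibitors, Cish and Socs3 were under the 20 CPM needed for comparison and Socs2 was not called: Cish was at 6.86, Socs2 at 20.7 and Socs3 at 8.51 CPM. Bcl2l1, the survival factor of maturing red cells, was at 31.3 against 29.97. Erfe, the erythroid hormone that lowers hepcidin, had 31 UMIs in all members.

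Of 12 tested genes for redox defence and chaperones, 4 were called higher and 0 lower. Prdx2, the main peroxiredoxin of red cells, stood at 5414, 5489, 5664, 5454, 5287 and 5327 CPM in libraries 1 to 6, 5.18-fold higher. Gpx1, glutathione peroxidase, stood at 2559.7, 2620.4, 2790.5, 2641, 2499.6 and 2475, 11.7-fold higher. Nfe2l2 and Eif2ak1, the heme-regulated kinase that slows translation, were 2.18- and 3.56-fold higher. Cat and Sod1 did not reach the 2-fold limit, at 34.4 and 96.2 CPM against 22.8 and 68.6. The metallothioneins Mt1 and Mt2, metal-binding proteins added to the gene lists after their values were seen, stood at 5758 and 1028 CPM. Mt1 was at 5633, 5272, 6142, 5137, 5814 and 5738 in libraries 1 to 6 and at 34.4 in the others, a 168-fold difference.

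Gas exchange and metabolism genes split into erythroid and general enzymes. Car2, the carbonic anhydrase, stood at 1743, 2006, 2126, 2072, 1952 and 2035 CPM in libraries 1 to 6 against 11.2 in the others. Car1, the other red cell carbonic anhydrase, had 7 UMIs in all members. Bpgm, which makes the bisphosphoglycerate that loosens oxygen from adult haemoglobin, stood at 718, 714, 826, 492, 485 and 465 CPM, with each of libraries 1 to 3 above each of libraries 4 to 6. Pklr, the pyruvate kinase of red cells and liver, stood at 92.7, 98.6, 96.1, 65.8, 67.7 and 67.2 CPM, again with each of libraries 1 to 3 above each of the rest. Slc29a1, a nucleoside transporter, was 13.4-fold higher. The glycolytic genes shared with other cells were not higher: Pgk1 was called lower, at 187 against 571 CPM, while Gapdh, Ldha and Aldoa lay between 0.514 and 0.553 times the level of the others. The glucose transporter Slc2a1 stood at 94.2, 95.1, 91.8, 150.0, 78.6 and 94.4 CPM and Slc2a3 at 23.6, 26.4, 22.1, 57.2, 25.8 and 27.6, with library 4 highest for both. Without the members that held markers of other cell types, Slc2a3 in library 4 was at 33.6 CPM and the ratio of highest to lowest library fell from 2.58 to 1.61.

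Genes for maturation and removal of organelles were mostly at the level of other cells, with 5 of 16 tested called higher and 0 lower (median log2 fold 0.17). Trim10, a ubiquitin ligase of terminal erythroid cells, stood at 146, 154, 164, 154, 142 and 147 CPM in libraries 1 to 6, 1123-fold higher. Ube2l6, Tent5c, Fbxo7 and Btg2 were 42.8-, 21.7-, 3.84- and 2.91-fold higher. Bnip3l, which clears mitochondria from reticulocytes, stood at 154 to 163 CPM against 184. Alox15, the lipoxygenase of reticulocytes, had 3 UMIs in all members and Trim58, which drives enucleation, 145. Mitochondrial transcripts gave 2.88% of the members' non-globin UMIs and 2.45% in the others. The limit of 10% was set on all UMIs, globins included, so on the non-globin scale it was looser for the members. The members' share was 2.68, 2.83, 2.77, 3.25, 3.09 and 3.04% in libraries 1 to 6. Ribosomal protein genes gave 34.4% of the members' non-globin UMIs and 20.8% in the others. Their member share was 1.63 to 1.67 times the other share in each library.

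Cell-cycle genes were expressed at about the level of the surrounding embryonic cells. Of 26 S phase genes tested, 0 were called higher and 2 lower, and of 28 G2 and M phase genes 1 was called higher and 0 lower. Over all genes tested, 5.86% were called higher and 32% lower. The median log2 fold was -0.31 for the S list and -0.19 for the G2 and M list, beside -0.57 over all genes tested. The gene called higher was Mki67, at 397, 469, 501, 287, 318 and 298 CPM in libraries 1 to 6 against 137. The 2 called lower were Cdca7 and Hells, a chromatin remodeller, at 28.3 and 31.6 CPM against 81.8 and 129. Pcna stood at 202 against 183, and Ccnb1 at 157 against 136. The summed G2 and M list gave 5102 CPM in the members and 5445 in the others, and the S list 2377 and 2835. Across members, the G2 and M sum and the S sum were negatively related within every library (Spearman rho -0.66 to -0.54, 1481 members, no test, and both are shares of the same UMIs).

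Among the 15 genes with the largest fold over the other barcodes, most belonged to the lists above. The first was Hbq1b, a theta-type alpha globin gene outside the 7 that chose the members, at 91.8, 104, 102, 118, 99.9 and 98.5 CPM in libraries 1 to 6 and 0.0667 in the others. Cldn13, a claudin gene found in rodents, followed at 48.02, 47.8, 58.6, 47.04, 46.3 and 52.5 CPM against 0.0370. Kel and Ermap, blood group proteins, stood at 154 to 191 and 182 to 224 CPM over the libraries. Gm32051, Asb17os and 6030468B19Rik, transcripts of unassigned role, stood at 41.9, 34.8 and 65.7 CPM against 0.0651, 0.0691 and 0.137. When only barcodes under 1% globin counted as the others, the log2 fold of Hbq1b was 11.65 in place of 10.56. The 7 globins gave 411 CPM in the other retained barcodes, and how much of such low levels was free RNA was not tested.

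By level, the 15 highest non-globin genes with ribosomal protein and mitochondrial genes set aside, mixed erythroid and general genes. Fth1, Ftl1, Mt1, Prdx2 and Gpx1 stood among them with the translation factor Eef1a1, at 7097 to 7887 CPM over the libraries against 5179.6 in the others. Tpt1, a translationally controlled growth protein, ran from 4795 to 5288 CPM against 3831. The chaperones Hsp90ab1 and Hspa8 were at 3794 and 3551 CPM against 4896 and 2477, and the nucleolar protein gene Npm1 at 3250.5 against 4284. Malat1, a nuclear long noncoding RNA, stood at 2486 to 3210.2 CPM against 4671.

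The marker lists of the surrounding tissues summed to lower levels in the members than in the others, and most of their genes were still detected. Of the 10 genes with the largest fold in the other direction, Nppa, Ankrd1, Smpx, Myl1, Trim55, Asb2 and Acta1 are muscle genes, and Pf4 is a platelet and macrophage gene. Nppa, the atrial natriuretic peptide, had 36 UMIs in all members (0.605 CPM against 99.3). Pf4 had 16 (0.269 CPM against 34.3). The 12 cardiomyocyte markers summed to 55.8 to 426 CPM over the libraries' members, highest in library 4, then in libraries 5 and 1, against 5615 to 8691 in the others. The 12 macrophage markers summed to 1.05 to 2.48 CPM with C1qa, C1qb, C1qc, Adgre1 and Aif1 at 0, and the 12 hepatocyte markers to 1.10 to 2.21 with Alb, Fgb, Serpina1a and Ahsg at 0. The endothelium list ran from 35.97 to 83.3, mesenchyme from 36.3 to 77.3, epithelium from 33.3 to 171 and neural from 14.5 to 36.4 CPM. The megakaryocyte list came nearest to the others, at 93.2 to 135 against 129.6 to 216, with Ppbp and Gp1ba at 0. Most of that sum was 1 gene that other cells also express, Rap1b, a small GTPase gene, at 84.5 CPM of 109, and 6 of the 12 were under 1 CPM.

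Macrophage and megakaryocyte barcodes (162, by markers) and endothelium barcodes (2817) share blood factors with the members, so their levels were set side by side. The first class pools macrophages with megakaryocytes, so its levels are not those of either cell type alone. Gata1 stood at 87.5 CPM in the members, 34.7 in the macrophage and megakaryocyte barcodes and 0.0274 in endothelium. Nfe2 stood at 30.3, 24.95 and 0.392, and Gfi1b at 36.2, 32.4 and 0.0365. Klf1 stood at 282, 8.87 and 2.77. With the marker share that defines the classes raised from 0.05% to 0.2% of UMIs, a limit added after seeing the data, 120 macrophage and megakaryocyte barcodes remained. Gata1 was then at 61.5 CPM there, still below the members, whereas Nfe2 at 38.6 and Gfi1b at 52.3 were above them, so the order for these 2 genes depends on the class limit. Klf1 was then at 3.06 there and at 0.249 in endothelium, and was below the members under both limits. Runx1, the factor of definitive blood, stood at 14.6 CPM in the members, 315 in the macrophage and megakaryocyte barcodes, 1.00 in endothelium and 7.35 in all other retained barcodes, so the members lay below the first of these and above the rest. Lmo2 stood at 81.5, 252 and 133, and Tal1 at 113, 53.2 and 39.9. Ikzf1 stood at 120.1 CPM in the members and 90.8 in the macrophage and megakaryocyte barcodes (59.1 at the stricter limit), and Lyl1 at 60.8 and 65.6 (76.1 at the stricter limit). These barcodes were few per library (17 to 42 in the first class), and no test was made.

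Genes were next compared along the globin share itself, between 843 members at 40% to 60% globin and 634 at 20% to 40%. Of 5013 genes tested, 0 were at least 2-fold higher (0%) and 134 at least 2-fold lower (2.67%) and in the same direction in all 6 libraries. The 134 genes were led by Robo1, at 23.8 CPM in the lower range and 0.600 in the upper, followed by Ptprk, Slit3, Igfbp2 and Rbms3. Robo1 and Slit3 are a guidance receptor and ligand of mesenchymal and neural tissue. The markers of other cell types moved with them, from 845 to 216 CPM. Without the 137 members that held at least 20 UMIs of such markers, 0 genes were lower and 0 higher.

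A finer split, added after these values were seen, compared the members of highest and of lowest globin share within each library (25% of the members on each side, 373 in all libraries) at a limit of 1.5-fold in 6 of 6 libraries. Of 5253 genes, 5 were higher (0.0952%) and 307 lower (5.84%). The 5 were Trib3, Atf5, Pdzk1ip1, Itpka (an inositol phosphate kinase) and Rhd. The markers of other cell types were at 1222 CPM in the low and 208 in the high set. With the 137 marker-bearing members left out, a setting added after seeing the data, 340 members stood on each side, 4 genes were higher (Atf5, Trib3, Lockd and Nusap1) and 2 lower, Hells and Specc1, both among the 307. Pdzk1ip1, Itpka and Rhd were then no longer called. Trib3, a pseudokinase gene induced by ATF4, stood at 18.2 CPM in the low and 38.6 in the high set. Atf5, a transcription factor of the same response, stood at 24.96 and 52.5. Rhd, a Rh blood group protein, stood at 172 and 316. The adult alpha share also differed, at 25.7% and 28.3% of alpha globin, and the median number of non-globin UMIs was 43458 and 33783.

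The same split by globin type found almost no other gene. Between the high and low sets by Hbb-bh1 share (22.3% and 17.2%), 1 of 4935 genes was higher (0.0203%) and 0 lower (0%). It was mt-Nd6, a mitochondrial complex I gene, at 94.1 against 48.6 CPM. By adult alpha share (30.1% and 23.9%), 1 of 4916 was higher (0.0203%) and 0 lower (0%), the transcript Gm42418, at 1264 against 589.8 CPM. Members with more Hbb-bh1 held more non-globin UMIs, with medians of 41832 and 33240. Within each library the Hbb-bh1 share fell as the adult alpha share rose (Spearman rho -0.29 to -0.09, no test). Without the 137 members, 0 genes were called by Hbb-bh1 share, so mt-Nd6 was lost, and by adult alpha share Gm42418 and Cdkn1a were higher and Bdh1 lower.

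More genes were called along the cell cycle than along the globin type. The splits are not alike, since globins were left out of the comparison and cell-cycle genes were not. Between the high and low sets by summed G2 and M level, 101 of 4935 genes were higher (2.05%) and 37 lower (0.75%), of which 25 and 17 belonged to the cell-cycle lists. Without the 137 members the counts were 103 and 40, of which 97 and 31 were called in both. The list itself chose these sets, so its own genes are no finding, and genes that follow it differ by that choice. Outside it, Pif1, a helicase, stood at 20.4 against 1.15 CPM. Cdc25c, the phosphatase that opens mitosis, stood at 27.96 against 4.54. E2f1 and Cdt1, of the entry into S phase, were lower, at 19.1 against 58.9 and 23.5 against 63.4 CPM. The globin share was 40.7% in the high and 40.6% in the low set. Markers of other cell types were at 316 and 799.6 CPM. The median non-globin UMIs were 48582 and 32416.

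The 6 libraries of members were alike for most genes. Of 2706 genes at 50 CPM or more in the highest library, 46 differed at least 2-fold between the highest and the lowest (1.7%), and the median ratio was 1.18. Of the 46, 22 were genes called lower in the members, such as Actc1, cardiac actin, at 82.02, 16.99, 26.1, 72.2, 58.8 and 7.54 CPM in libraries 1 to 6, and Myl7, the atrial myosin light chain, at 77.1, 14.2, 29.1, 118, 104.8 and 16.97. Both were higher in libraries 1, 4 and 5 than in the rest, as were the cardiomyocyte marker sums, which include both genes. Not all of the 22 followed this order. Vim, an intermediate filament gene, stood at 62.5, 9.80, 22.04, 56.1, 55.9 and 63.9 CPM and Lgals1, a galectin gene, at 120.2, 82.4, 118, 55.7, 70.4 and 73.7. Without the 137 members with markers of other cell types, 23 of the 46 stayed past both limits (25 genes in all), and 1 of these, Lgals1, was called lower in the members. Of the 23 that were lost, Slc8a1, Actc1, Myl4, Cdkn1c, Meg3, Tenm3 and Gpc3 kept a ratio of at least 2 at levels under the 50 CPM minimum, such as 2.75 for Actc1. With members of repeated sequence left out, 41 of the 46 stayed, among 118 genes in all, and the other 5 (Slc8a1, Myl4, Meg3, Tenm3 and Slc2a3) kept a ratio of at least 2 but fell under the 50 CPM minimum.

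Histone genes formed the largest remaining group, 10 of the 23. Hist1h1b, a linker histone, stood at 498, 501, 661, 111, 118 and 124 CPM in libraries 1 to 6. Each of libraries 1 to 3 lay above each of libraries 4 to 6. The other retained barcodes were likewise higher in libraries 1 to 3, at 608, 724, 799, 164, 136 and 146 CPM. Gm42418 stood at 794, 1037, 1065, 418, 267 and 269 CPM in the members and differed 5.69-fold in the others. Of the 46 genes, 19 also differed at least 2-fold between libraries in the other barcodes, among them Ide and Btaf1, both highest in library 3. The share of all compared genes that did so in the other barcodes was not counted, so none stands beside the 19. The count of 19 takes no account of direction and includes the sex-linked Xist and Eif2s3y. Cdkn1c, for 1, was highest in library 4 in the members (102 CPM) and lowest there in the others (731 CPM).

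A second group differed more between libraries in the members than in the others. Atf5 stood at 19.7, 26.3, 11.2, 64.05, 70.5 and 89.3 CPM in libraries 1 to 6, a ratio of 7.94. Libraries 4, 5 and 6 were high and library 3 lowest. In the other retained barcodes it stood at 14.1, 15.3, 16.02, 15.5, 14.7 and 14.4 CPM, a ratio of 1.14. Psat1 and Psph, enzymes of serine synthesis, stood at 37.2, 50.3, 33.7, 69.1, 76.9 and 85.9 and at 65.8, 68.2, 55.02, 97.2, 108 and 113 CPM in the members, with ratios of 2.55 and 2.06 against 1.26 and 1.09 in the others. These genes are known targets or partners of ATF4, the factor that amino acid shortage, heme shortage and endoplasmic reticulum stress activate.

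A list of 27 ATF4-related genes was therefore drawn up after these values were seen, and it supports nothing on its own. Of the 27, 18 stood at 20 CPM or more in the members, 14 of the 18 were highest in library 6, and 17 were lowest in library 1 or 3. Of all 4755 non-globin genes at that level, 11.7% were highest in library 6 and 40.1% lowest in library 1 or 3. Atf4 itself stood at 131, 164, 131, 203, 229 and 259 CPM in libraries 1 to 6 and at 71.6, 72.8, 75.8, 76.8, 73.3 and 74.8 in the others. Trib3 stood at 20.9, 28.4, 14.5, 35.6, 40.4 and 45.03 CPM in the members, where it was 45.5-fold above the others. Asns, asparagine synthetase, stood at 229.6, 257, 199, 281, 285 and 320.2 and Eif4ebp1, a brake on translation, at 119, 139, 108, 181, 196 and 205 CPM. The whole list summed to 1758, 1992, 1679, 2208, 2342 and 2538 CPM in the members and lay between 1029.5 and 1099 in the others. Over the 18 genes the median ratio of highest to lowest library was 1.47 in the members and 1.16 in the others, beside 1.21 and 1.12 over the 4755 genes. Without the members that carried other-type markers, Atf5 stood at 20.7, 26.3, 11.1, 72, 75.4 and 96.1 CPM. Treatment, embryo, library preparation and stage cannot be told apart here.

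**Figure D4:**
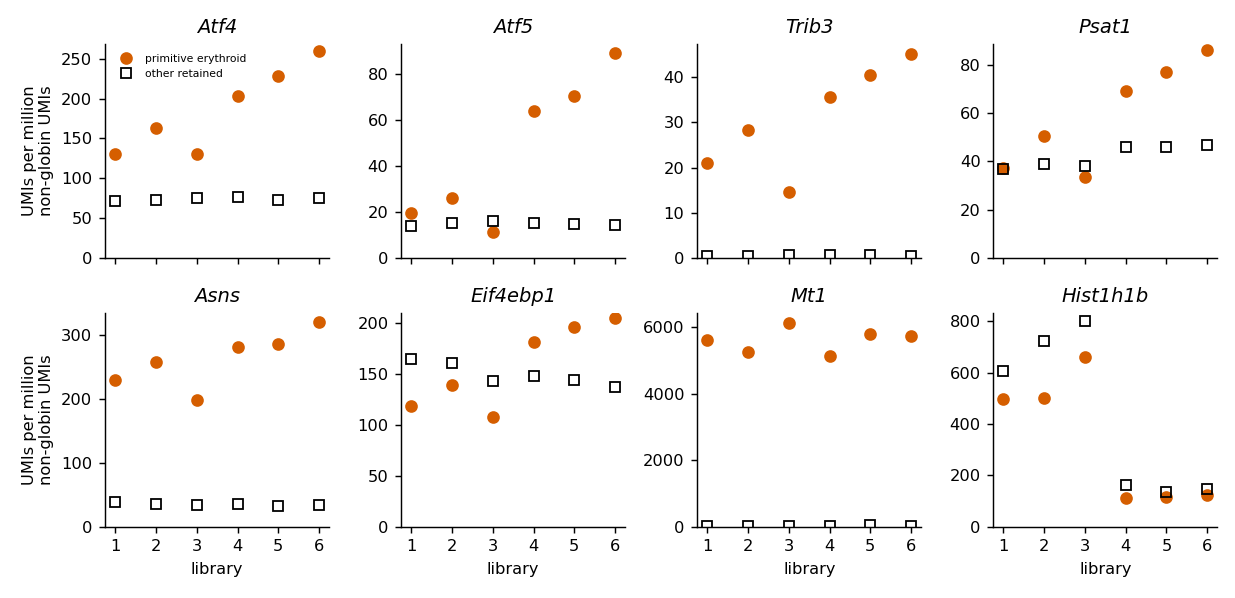
Levels of 8 genes by library, in CPM (of non-globin UMIs) on axes that start at 0, in the primitive erythroid members (filled circles) and the other retained barcodes (open squares). Atf4, Atf5, Trib3, Psat1, Asns and Eif4ebp1 vary between libraries in the members more than in the others, Mt1 stays between 5137 and 6142 in the members, and Hist1h1b varies in both.

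Hsd3b6 was high in the members and varied between libraries. This steroid dehydrogenase gene stood at 77.9, 77.6, 127, 34.01, 49.5 and 30.2 CPM in libraries 1 to 6 against 1.55 in the others, and library 3 was highest. Its level in the others, though low, also differed 3.57-fold between libraries. Pdzk1ip1, a small membrane protein, stood at 74.8, 64.8, 86.9, 42.6, 61.6 and 58.7 CPM, highest in library 3 and lowest in library 4. In the others it stood at 0.279, and the libraries differed 2.16-fold with library 4 highest (0.399). Without the marker-bearing members its ratio fell from 2.04 to 1.85, under the 2-fold limit. Fos, an immediate early gene, stood at 83.9, 94.99, 43.4, 81.3, 113 and 116 CPM, lowest in library 3.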

How the data were processed

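Single-cell RNA libraries (10x Chromium Single Cell 3′ v3) of 6 samples were read from the authors' deposited matrix of raw UMI counts per gene and barcode, whose header, per the file headers, gives Cell Ranger 5.0.0 as the source. The submitters' processing notes name CASAVA 1.8, Seurat 4 and mm10, with no role given. The labels' descriptions name a chromatin assay, whereas their titles, kit and library source say RNA, and the features are genes. Libraries 1 and 2 hold exactly 10000 barcodes each. The 6 libraries held 200462921 to 248426458 UMIs.

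Counts of the members were summed by library and divided by the sum of non-globin UMIs (CPM). A gene was compared at 20 CPM or more in either group and called at 2-fold, pooled and in 6 of 6 libraries, with no test, since the matrix pools samples that no file maps to libraries. Between libraries, genes at 50 CPM in the highest were compared. Genes named were the 15 with the highest and the 10 with the lowest fold, the 15 highest levels (ribosomal protein and mitochondrial genes as sums), the first 10 along the globin share and between libraries, and members of 23 lists of 311 genes. The members and lists were chosen with earlier results of these data known. The ATF4, histone and metallothionein lists and the sets of 25% of members were added after the values were seen. Comparison classes needed 10 UMIs and 0.05% of UMIs from their markers. No doublet caller was run, and members with 20 or more UMIs of other cell types' markers were left out as an alternative. Intervals are exact and cover counting error only, and 3 UMIs were taken as the upper limit of a count of 0. On counts simulated with counting error only, 50 of 50 genes were called at each true fold (3, 5, 0.333 and 0.2). Of 6496 unchanged genes, 0 were called. No spread between libraries was simulated and the folds lie well past the limit, so this checks the code and not the rate of false calls. Promoters came from RefSeq (GRCm38.p6). Some items are not reported here. Python 3.11.15, numpy 2.4.6, scipy 1.17.1, pandas 2.3.3 and matplotlib 3.10.9 were used. Alternatives changed the globin and gene limits, the fold, the CPM minimum, the weighting of libraries, the depth per member, the total, and the members with repeated sequences or other markers, and left out each library in turn.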

Additional observations from a re-analysis of the deposited data

How the results depend on the processing

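Members numbered 1034 to 1352 when each library was left out in turn. Embryonic globins then gave 87.1 to 87.4% of globin UMIs, Hbb-bh1 19.8 to 20.2% of the embryonic beta sum and adult alpha 26.4 to 27.2% of alpha globin. Genes called higher numbered 419 to 430, lower 2272 to 2333, lower along the globin share 111 to 185, higher along it 0, and 2-fold between libraries 36 to 45. Embryonic, Hbb-bh1 and adult alpha shares were 84.4, 17.6 and 31.6% at 50% globin or more, 87.4, 19.6 and 26.5% without members of repeated sequence, and 87.2, 20.1 and 27.03% with libraries weighted equally. Embryonic and adult alpha shares were 87.2 and 26.9% without marker-bearing members, and 87.2 and 26.9% at 30% globin or more, a limit added after seeing the data. At 50% globin, 33 members gave 233 genes higher and 2714 between libraries, and no value along the globin share. Higher counts were 760 at 1.5-fold, 232 at 3-fold and 186 with globins in the total. Lower counts were 4107 at 5 CPM, 1111 at 50 CPM and 3992 with globins in the total. Along the globin share, lower counts were 214 from 10% globin, 68 without repeated sequences, 0 without marker-bearing members, 695 at 5 CPM and 34 at 50 CPM, and 5 genes were higher after thinning to 2000 UMIs. Between libraries the count was 118 without repeated sequences, 25 without marker-bearing members, 27 with globins in the total, 139 at a minimum of 20 CPM and 20 at 100 CPM. For changes not made by the setting itself, the cause was not tested. Among 133 called genes followed through 2900 values, 0 changed sign and 867 moved beyond counting error, by up to 5.65 on the log2 scale (Gm32051 at 50% globin, where barcodes of lower globin share join the others). No paired analysis was possible because no file pairs a library with a sample and so with a treatment, while members and other barcodes were compared within each library throughout.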
